A study of Mus musculus with 10 samples.

Results

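The testis makes its own versions of several chaperones of the endoplasmic reticulum, the compartment in which membrane and secreted proteins fold. Here 10 genes were followed, 3 testis forms (Clgn, Calr3 and Pdilt) and 7 forms that nearly every tissue makes (Canx, Calr, Pdia3, Pdia4, Pdia6, P4hb and Hspa5), out of 19661 genes measured. They were chosen by name. Each was read from the 1 array feature annotated with that symbol alone that had the highest mean over all arrays.

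Newly made glycoproteins are held in the endoplasmic reticulum by lectin chaperones, which bind a trimmed sugar and keep the protein until it has folded, while protein disulfide isomerases form and rearrange its disulfide bonds. Calmegin (Clgn) is the germ cell relative of the membrane lectin calnexin (Canx), calsperin (Calr3) that of the soluble lectin calreticulin (Calr), and PDILT (Pdilt) that of the protein disulfide isomerases, of which P4hb is the founding member. In the mouse these testis forms are known for folding and assembling the ADAM proteins that sperm carry on their surface and need to enter the oviduct and bind the egg coat. Male mice that lack any 1 of them are infertile or nearly so.

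Whole testes of 5 wild types (WT) and 5 Crem-/- males (KO) were read on Affymetrix Mouse Gene 1.0 ST arrays, each mouse on its own array. All were untreated, of the mixed strain that the labels give as 129Pas x C57Bl/J, 8 weeks old and killed when the lights came on. In the KO a neomycin resistance gene was inserted across both DNA-binding domains of Crem, a transcription factor of the germ cells, so every cell of the animal carried the mutation. The comparison asks what the testis expresses when CREM is missing.

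Values are log2 levels after RMA, a method that summarises the probes of a feature and makes the arrays comparable. A gene was called changed at a limma adjusted p under 0.05. Array medians lay between 7.11 and 7.15, and pairs of arrays of 1 genotype correlated at 0.9919 to 0.9954, against 0.9363 to 0.9519 for pairs of unlike genotype. The labels give 4 batches. Batch 2 held 3 WT arrays and KO replicate 3, batch 4 held WT replicate 5 and 3 KO arrays, and batches 1 and 3 held 1 array each, KO replicate 2 and WT replicate 4. Crem itself was lower in the KO by 3.28-fold, with WT arrays from 10.89 to 11.04 and KO arrays from 9.01 to 9.41. Changes had a median standard error of 0.0755, a precision set by how many arrays there were.

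Among the testis forms, the KO had less Calr3 and, by far less, Pdilt, while Clgn was not called. Among the ubiquitous forms, Canx, Pdia6, P4hb and Hspa5 rose by 1.16- to 1.23-fold and none fell. Over all genes measured, 44.3% were called, 31.1% as higher and 13.2% as lower, so 4 of 7 ubiquitous forms higher and 2 of 3 testis forms lower stand against those shares. In whole testis, fewer cells of a type and less RNA per cell cannot be told apart.

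**Figure D1:**
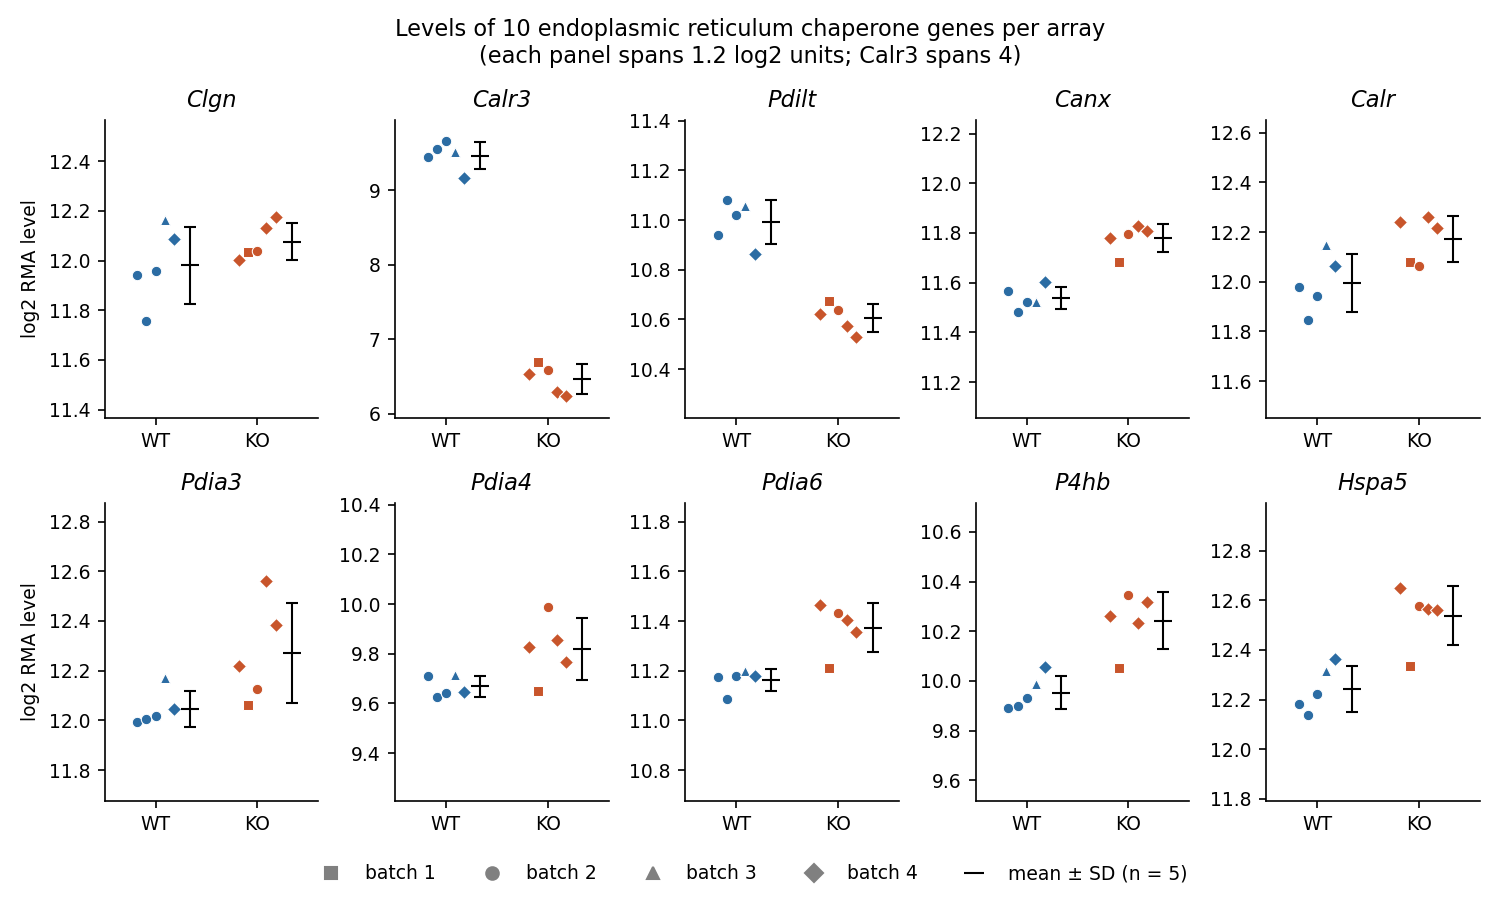
Log2 RMA level of each of the 10 chaperone genes on each array (points, shaped by batch), with mean ± SD of 5 WT and 5 KO arrays. Each panel spans 1.2 log2 units except that of Calr3, which spans 4, where the KO arrays lie between 6.24 and 6.69 and the WT arrays between 9.16 and 9.66.

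Calr3 lies on chr8:72424176-72443819 (GRCm38.p6). Its 300-base RefSeq promoter window, from 250 bases before a transcript start to 50 bases after it, is printed with those of Pdilt, the other testis form that fell, and of Canx and Hspa5, a pair of ubiquitous forms that rose, because CREM belongs to a family that binds the cAMP response element (CRE) and because many chaperone genes carry an endoplasmic reticulum stress element (ERSE). The windows are Calr3 at chr8:72443729-72444028, Pdilt at chr7:119523433-119523732 and Canx at chr11:50325624-50325923, all on the minus strand, and Hspa5 at chr2:34771840-34772139 on the plus strand. Capitals mark matches to the CRE core TGACG, which reads CGTCA on the opposite strand, and the fixed bases of the ERSE letters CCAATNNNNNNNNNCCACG.
Calr3: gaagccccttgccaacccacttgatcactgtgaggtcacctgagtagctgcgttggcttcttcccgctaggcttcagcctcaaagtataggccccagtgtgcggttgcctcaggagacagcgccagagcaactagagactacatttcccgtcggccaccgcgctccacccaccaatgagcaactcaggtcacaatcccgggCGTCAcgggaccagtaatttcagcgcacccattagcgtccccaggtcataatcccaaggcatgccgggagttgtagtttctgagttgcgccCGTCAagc
Pdilt: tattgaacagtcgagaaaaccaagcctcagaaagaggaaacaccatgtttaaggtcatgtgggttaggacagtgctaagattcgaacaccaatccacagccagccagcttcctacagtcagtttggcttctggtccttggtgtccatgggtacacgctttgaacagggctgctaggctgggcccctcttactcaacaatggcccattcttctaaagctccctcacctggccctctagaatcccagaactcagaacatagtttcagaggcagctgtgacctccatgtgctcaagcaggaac
Canx: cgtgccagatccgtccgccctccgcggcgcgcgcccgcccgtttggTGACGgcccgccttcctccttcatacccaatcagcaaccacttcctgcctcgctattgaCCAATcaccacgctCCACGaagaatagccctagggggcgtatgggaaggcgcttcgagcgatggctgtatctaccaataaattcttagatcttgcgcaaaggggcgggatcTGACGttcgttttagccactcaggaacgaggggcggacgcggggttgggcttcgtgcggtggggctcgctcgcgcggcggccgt
Hspa5: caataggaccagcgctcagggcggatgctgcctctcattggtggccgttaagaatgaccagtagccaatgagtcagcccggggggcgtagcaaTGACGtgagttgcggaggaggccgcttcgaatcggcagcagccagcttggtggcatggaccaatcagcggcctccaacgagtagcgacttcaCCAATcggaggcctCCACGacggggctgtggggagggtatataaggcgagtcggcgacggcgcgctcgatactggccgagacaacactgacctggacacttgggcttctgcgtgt

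Calr3, which serves the ADAM proteins as a testis calreticulin, had levels of 9.44, 9.55, 9.66, 9.51 and 9.16 in WT replicates 1 to 5 and of 6.54, 6.69, 6.59, 6.29 and 6.24 in KO replicates 1 to 5. Every KO array lay more than 2 log2 units below every WT array. The mean fell from 9.47 ± 0.19 to 6.47 ± 0.20 (SD, n = 5 each), a change of −3.00 ± 0.11 (SE), or 7.99-fold with a 95% interval of 6.82 to 9.36 (limma adjusted p = 4.2e-11). The WT mean lay at percentile 83.8 of features and the KO mean at percentile 35.9. How much of that KO level is background was not tested. Only 4.36% of all genes were called and fell by at least 1 log2 unit. KO replicates 2 and 3 were the highest KO arrays for Calr3, and of the 857 genes that fell by at least 1, KO replicate 2 was the highest KO array for 42.4% and KO replicate 3 for 30.9%. The change was −2.96 within batch 2 and −2.81 within batch 4.

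Pdilt, on chr7:119486586-119529036, encodes a protein that pairs with calsperin and lacks the usual catalytic cysteines of its family. Its printed window belongs to a transcript start inside that span. Levels were 10.94, 11.08, 11.02, 11.06 and 10.86 in the WT and 10.62, 10.67, 10.64, 10.57 and 10.53 in the KO. The groups did not overlap, although the lowest WT and highest KO arrays were close together. The mean fell from 10.99 ± 0.09 to 10.61 ± 0.06 (SD, n = 5 each), by 0.38 ± 0.06 (SE) or 1.31-fold (limma adjusted p = 1.7e-04). The 95% interval of the change ran from −0.51 to −0.26 for Pdilt and from −3.23 to −2.77 for Calr3.

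Clgn, on chr8:83389790-83428552, encodes the chaperone of the ADAM heterodimer fertilin. Levels were 11.94, 11.76, 11.96, 12.16 and 12.09 in the WT and 12.00, 12.04, 12.04, 12.13 and 12.18 in the KO. The groups overlapped along most of their range, and the WT arrays were spread more widely than the KO arrays. The means were 11.98 ± 0.16 and 12.08 ± 0.07 (SD, n = 5 each), a difference of 0.09 ± 0.08 (SE), whose 95% interval of −0.07 to 0.26 holds neither the fall of Pdilt nor that of Calr3 (limma adjusted p = 0.36). Without WT replicate 2, the lowest WT array, the difference was 0.04, and over all arrays left out in turn it ran to 0.14.

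The promoter windows differed in the motifs they held. In all, 9 of the 10 genes had a window, with a pair for Calr3, while Clgn had none and was not searched. None of these 10 windows held the full CRE TGACGTCA, which 1.79% of 32851 promoters of the same length held. The CRE core TGACG was in 5 of 10 windows, against 20.8% of all promoters. In the printed Calr3 window it lay on the opposite strand, 49 to 45 bases before the start and again 42 to 46 bases after it. The Pdilt window held none of the letters searched. The ERSE letters were in the windows of Canx, Calr, Pdia6 and Hspa5 and in 0.119% of all promoters, 39 in number. The G and C share of the 10 windows ran from 48.3% to 75.7%, and its part in these counts was not tested. A match of letters is a description and not a binding site, and no match says nothing of the factor.

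**Figure D2:**
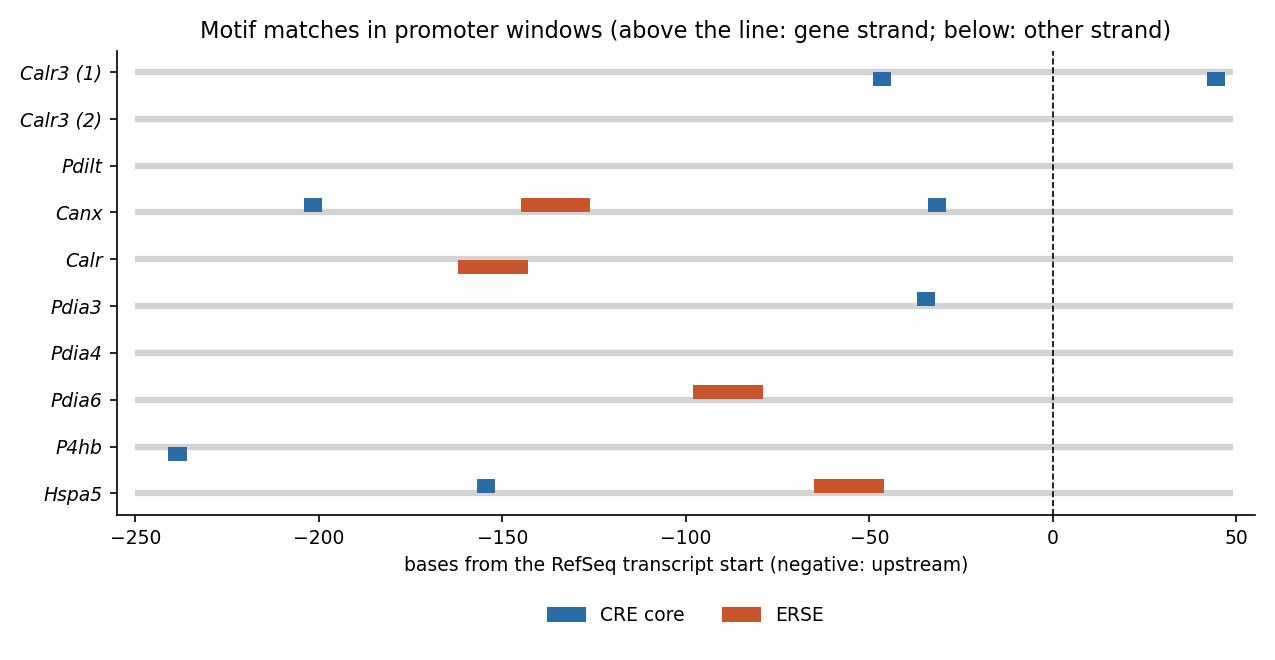
Matches to the CRE core and the ERSE in the 10 promoter windows, by distance in bases from the RefSeq transcript start. Blocks above each line are on the gene's strand and blocks below it on the other. The second window of Calr3 and those of Pdilt and Pdia4 hold no match, and Clgn had no window.

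The ubiquitous lectins were read next. Canx, the membrane lectin, had levels of 11.56, 11.48, 11.52, 11.52 and 11.60 in the WT and of 11.78, 11.68, 11.80, 11.83 and 11.81 in the KO. The groups did not overlap. Canx rose by 0.24 ± 0.05 (SE, limma adjusted p = 2.6e-03). Calr, the soluble lectin, which also stores calcium, ran from 11.85 to 12.15 in the WT and from 12.06 to 12.26 in the KO, and its difference of 0.18 ± 0.07 was not called (limma adjusted p = 0.061). Of all genes, 32.7% had groups that did not overlap, 22.0% with the KO higher and 10.7% with the KO lower. Here 4 of the 10 genes did, Calr3 and Pdilt with the KO lower and Canx and Pdia6 with the KO higher.

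The disulfide isomerases gave differences of like size. P4hb, which is also a subunit of the collagen prolyl hydroxylase, had levels of 9.89, 9.90, 9.93, 9.99 and 10.06 in the WT and 10.26, 10.05, 10.34, 10.23 and 10.32 in the KO. Only KO replicate 2 reached into the WT range. P4hb rose by 0.29 ± 0.07 (SE, limma adjusted p = 3.3e-03). Pdia6, an isomerase that works with BiP, rose by 0.21 ± 0.06, from a WT range of 11.09 to 11.20 to a KO range of 11.21 to 11.47 (limma adjusted p = 0.013). Pdia3, the partner of both lectins also known as ERp57, ran from 11.99 to 12.17 in the WT and from 12.06 to 12.56 in the KO, a difference of 0.22 ± 0.09 that was not called (limma adjusted p = 0.059). Pdia4, or ERp72, had a difference of 0.15 ± 0.07 (limma adjusted p = 0.087), with a WT range of 9.63 to 9.72 and a KO range of 9.65 to 9.99.

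Hspa5, or BiP, the main Hsp70 chaperone of the compartment, had levels of 12.18, 12.14, 12.22, 12.31 and 12.36 in the WT and of 12.65, 12.33, 12.58, 12.56 and 12.56 in the KO. KO replicate 2 lay between WT replicates 4 and 5, and the other 4 KO arrays lay above all WT arrays. Hspa5 rose by 0.29 ± 0.07 (SE), or 1.23-fold (limma adjusted p = 4.5e-03).

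The count of ubiquitous forms called moved with single arrays and with the fit. KO replicate 2 was the lowest KO array for 6 of the 7, Calr being the exception, and it was the lowest KO array for 38.0% of the 6106 genes called higher. Without it all 7 were called higher, Calr by 0.20, Pdia3 by 0.28 and Pdia4 by 0.19. Calr and Pdia3 also passed without KO replicate 3, at 0.20 and 0.26, and without WT replicate 4, at 0.21 and 0.26, for a count of 6 in each case. With every array kept, array weights called all 7, and median centring, a further quantile normalisation and trend and robust fits called 6. Among the WT arrays the highest was WT replicate 4 for 4 of the 7 and WT replicate 5 for 3, both outside batch 2. Within batch 2 the changes of the 7 ran from 0.12 for Pdia3 to 0.44 for P4hb, and within batch 4 from 0.17 for Calr and Pdia4 to 0.34 for Pdia3. The 4 that rose, by 0.21 to 0.29, stand beside a median change of 0.34 over all genes called higher, with quartiles of 0.26 and 0.47. The median change of all genes was 0.07.

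**Figure D3:**
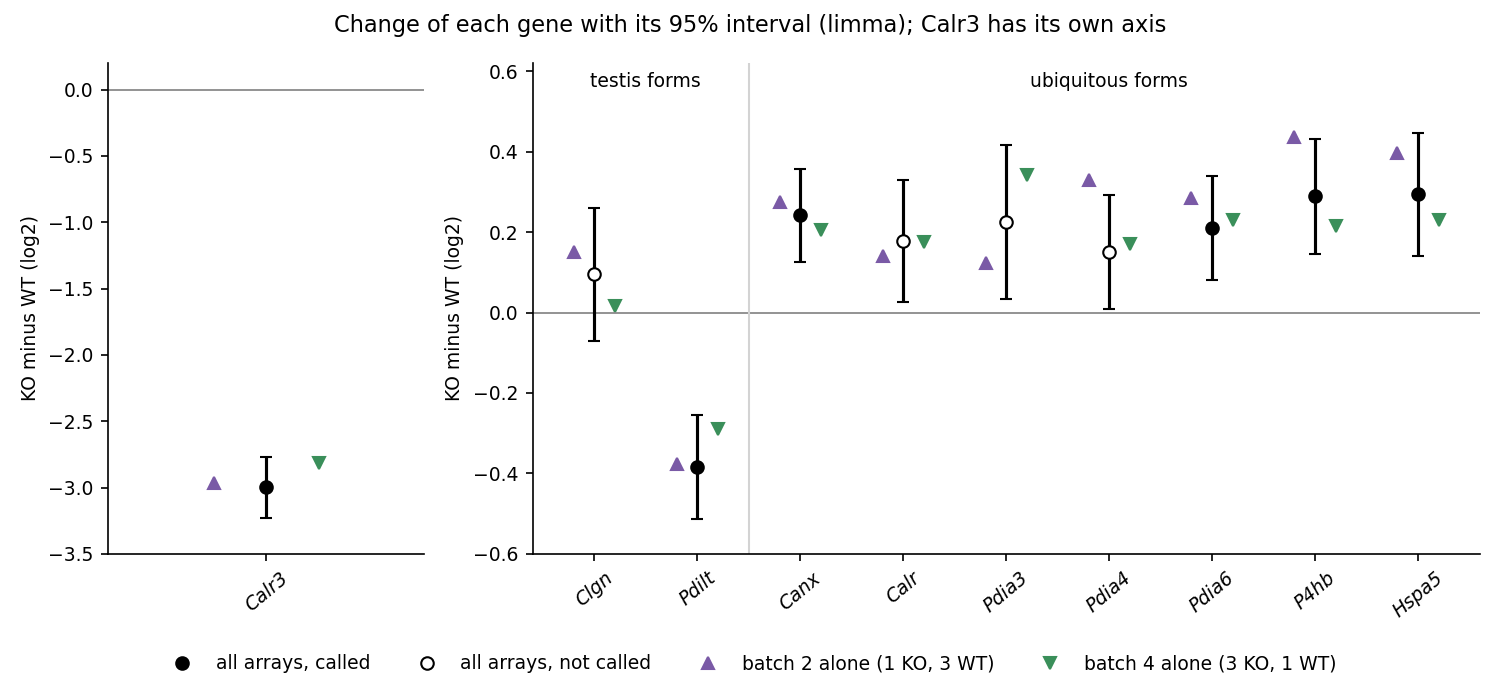
KO minus WT in log2 for each gene with its 95% interval (limma, 5 arrays per group), filled where called and open where not. Triangles give the change within batch 2 and within batch 4 alone; Calr3, at −3.00, has its own axis, and all 7 ubiquitous forms lie above 0 in both batches.

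Each testis form was then set against its ubiquitous relative by their difference within an array, which cancels a shift of a whole array. The level of Calr3 minus that of Calr was −2.53 ± 0.26 in the WT and −5.70 ± 0.27 in the KO (SD, n = 5 each). The change of Calr3 was thus lower than that of Calr by 3.18, with a 95% interval of −3.57 to −2.78 for the difference (exact permutation test, two-sided, p = 0.00794, adjusted over 3 pairs 0.0119). Pdilt minus P4hb went from 1.04 ± 0.14 to 0.36 ± 0.15, a difference of −0.67 with an interval of −0.863 to −0.453 (exact permutation test, n = 5 each, p = 0.00794, adjusted 0.0119). In both pairs the groups did not overlap, and 0.00794 is the smallest p that 252 regroupings of the arrays can give.

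The calmegin pair differed less. Clgn minus Canx was 0.44 ± 0.14 in the WT and 0.30 ± 0.06 in the KO (SD, n = 5 each). The difference of −0.15 had an interval of −0.302 to 0.003 and did not pass (exact permutation test, p = 0.0635, adjusted 0.0635). Without WT replicate 2, the WT array with the least Clgn and the smallest Clgn minus Canx, it was −0.19 and passed (exact permutation test, adjusted p = 0.00794). With any other single array left out it did not pass. Without WT replicate 4 it was −0.10 (exact permutation test, adjusted p = 0.119). These differences compare changes and not the amounts of the paired transcripts, since levels of different probes are not on a common scale.

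**Figure D4:**
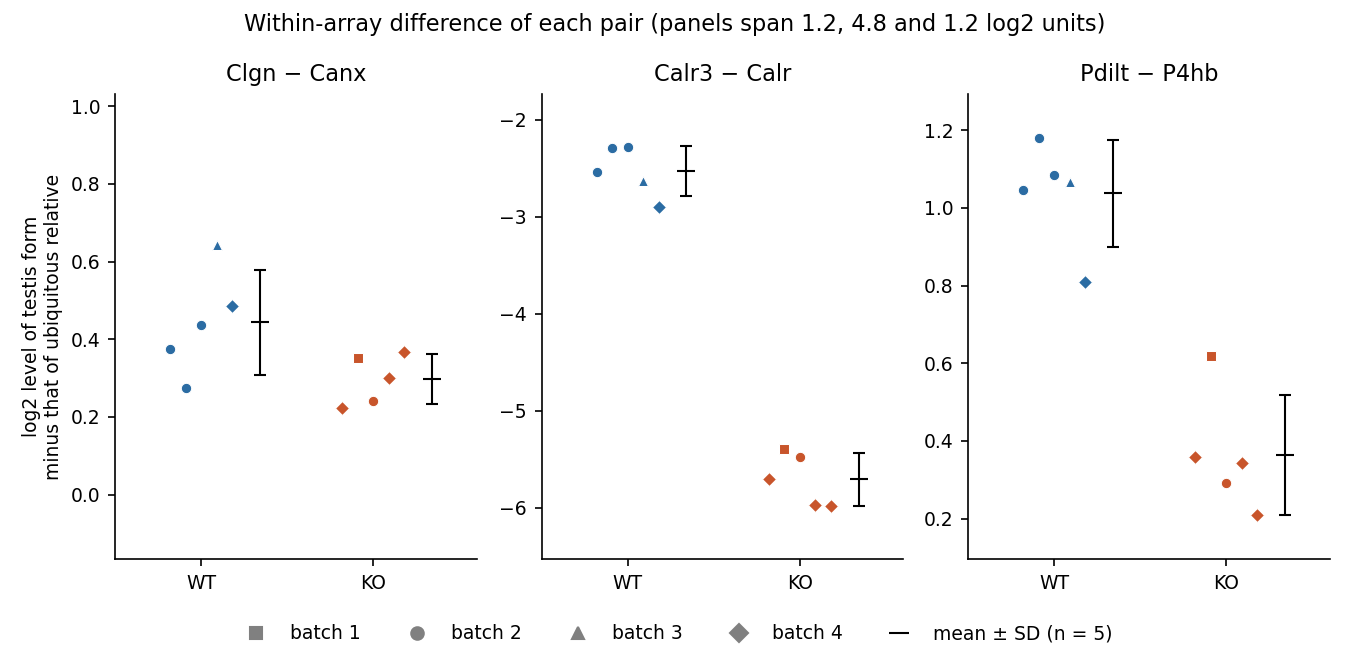
Level of each testis form minus that of its ubiquitous relative on each array, in log2, with mean ± SD of 5 WT and 5 KO arrays; points are shaped by batch and panels span 1.2, 4.8 and 1.2 log2 units. KO arrays lie below all WT arrays for Calr3 minus Calr and for Pdilt minus P4hb, and within or below the WT range for Clgn minus Canx.

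Markers of germ cells and somatic cells were read on the same arrays. Their counts, here and in the next paragraph, stand beside 31.1% of all genes called higher and 13.2% called lower. Of the round spermatid markers 8 of 9 fell, with a median change of −4.15 and a summed level of 14.71 to 14.87 in the WT and 13.43 to 13.58 in the KO. Acrv1, an acrosomal protein and the marker with the highest mean, was the exception with 0.15 ± 0.06. According to the study, spermatogenesis in these KO mice stops at the round spermatid stage. Whether the round spermatid list fell through fewer cells or less RNA per cell was not tested on these arrays. The study also measured a selected group of genes by qPCR in prepubertal mice, whose germ cells it describes as about alike in both genotypes. All were lower in the KO, and the study credits CREM rather than missing cells for those falls. All 10 elongating spermatid markers fell, with a median of −5.03 and a summed level that went from 16.28 to 16.54 in the WT down to 12.50 to 13.59 in the KO. The fall of Calr3 lay between that of Acr, the acrosomal protease, at −0.51 ± 0.08 and those medians. Most elongating spermatid markers, such as Prm1, Tnp1 and Akap4, are genes that the study itself names as lower on these arrays. Catsper1 and Izumo1 of the round spermatid list are named there too. The direction of these markers is therefore not independent evidence.

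Markers of other cells went up or changed little. Of the spermatocyte markers 6 of 10 rose and none fell, with a median of 0.25 and a summed level of 14.81 to 14.94 in the WT and 15.04 to 15.08 in the KO. For Sertoli cells 5 of 11 rose (median 0.18, summed level 13.57 to 13.76 in the WT and 13.78 to 14.11 in the KO). For Leydig cells 5 of 6 rose (0.57, 13.07 to 13.34 and 13.46 to 14.14), for macrophages 7 of 8 (0.55, 10.62 to 10.78 and 11.07 to 11.78) and for endothelium 3 of 6 (0.33, 9.47 to 9.56 and 10.31 to 10.50). The spermatogonial list had 2 higher and 1 lower of 8, from 10.78 to 11.14 in the WT and 10.95 to 11.10 in the KO, and the peritubular list 1 each way of 6, from 12.11 to 12.35 and 11.91 to 12.23. Some Leydig and Sertoli markers, such as Star, Hsd17b3 and Fshr, are likewise named by the study from these arrays. The array gives no zero level. The testis label fits the germ cell lists, whose elongating spermatid markers all lay at or above percentile 96.2 of features in the WT. The part of these cell types in the changes of the chaperones was not tested.

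A list of sperm surface and secreted proteins, called the sperm surface list below, went both ways. It held ADAM proteins, some of them clients of these chaperones, and proteins known to keep ADAM3 on the sperm surface. It also held other sperm proteins, such as Hyal5, Spam1 and Izumo1, so a place in the list does not make a protein a client. Of 32 measured, 12 fell, 8 rose and 12 were not called, or 37.5% lower and 25% higher beside 13.2% and 31.1% of all genes, with a median of 0.02. The list includes genes that the study itself names from these arrays, such as Ace and Izumo1, so their direction is not independent evidence. The fertilin gene Adam2 rose by 0.39 ± 0.07, from a WT range of 11.85 to 12.02 to a KO range of 12.18 to 12.45, and its partner Adam1b by 0.35 ± 0.06. Adam3, the client most closely tied to all 3 testis chaperones, was at 12.85 to 12.97 in the WT and 12.91 to 13.03 in the KO, a difference of 0.07 ± 0.05 that was not called (limma adjusted p = 0.31). Adam1a and Adam5 were not called either, at 0.14 ± 0.08 and 0.05 ± 0.07. These 5 ADAM genes and Tex101 and Ly6k were named after their values were seen.

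Prss37, Prss55 and Hyal5 fell furthest in that list, followed by Adam6b and Adam6a. Some KO means were low, at percentile 16.4 of features for Prss37 and 10.9 for Adam6b, so the order of these falls is uncertain. Prss37 and Prss55, serine protease family members of spermatids, changed by −5.55 ± 0.27 and −5.34 ± 0.19. Hyal5 and Spam1, hyaluronidases of the sperm head, changed by −4.84 ± 0.36 and −3.09 ± 0.07. Ace, whose testis form is needed for ADAM3 to reach its place, fell by 2.42 ± 0.07. Pmis2 fell by 2.15 ± 0.14, and Izumo1, the sperm protein that binds the egg, fell by 1.75 ± 0.08. Adam4 fell by 3.02 ± 0.16, and Adam6b and Adam6a changed by −4.07 ± 0.21 and −3.74 ± 0.25. Adam26b and Adam26a rose by 1.17 ± 0.22 and 0.89 ± 0.12. Adam6a and Adam6b, like Adam26a and Adam26b, are close copies whose probes may read both, so which copy moved is uncertain. Tex101 and Ly6k, surface proteins of germ cells, were not called, at 0.08 ± 0.08 and −0.08 ± 0.10.

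Around the 10 genes, 9 further lists of the folding pathway were counted. With the sperm surface list they held 156 measured genes, of which 72 rose and 20 fell. Of all genes 31.1% rose and 13.2% fell. Pooled with the sperm surface list, which gave 12 of the 20 falls, the share that fell was near that of all genes. Outside the sperm surface list, falls came only from the disulfide isomerase, unfolded protein response and degradation lists. The counts of each list below are to be read beside the shares of all genes. In the lectin cycle 9 of 13 rose and none fell, with a median of 0.24. Prkcsh and Ganab, the subunits of glucosidase II that trims the sugar before a lectin binds, rose by 0.64 ± 0.08 and 0.29 ± 0.07, and Selenof, a selenoprotein that binds the folding sensor of the cycle, by 0.57 ± 0.05. Among 7 prolyl isomerases 4 rose, Fkbp9 most at 0.56 ± 0.14, then Fkbp14 at 0.35 ± 0.08 and Ppic at 0.30 ± 0.10. Among 17 heat shock proteins and cochaperones 7 rose, including Sdf2 at 0.48 ± 0.10, Hsp90b1, the Hsp90 of the compartment, at 0.36 ± 0.05 and the J protein Dnajc1 at 0.30 ± 0.06.

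The other disulfide isomerase family list split. Of 20 measured, 10 rose and 2 fell, with a median of 0.20. Tmx3, a membrane thioredoxin, rose by 0.49 ± 0.05. Prdx4, the peroxiredoxin of the compartment, fell by 2.24 ± 0.10, from a WT range of 10.85 to 11.19 to a KO range of 8.62 to 9.12, and Casq1, a calcium store with a thioredoxin-like fold, fell by 1.05 ± 0.10. The fall of Prdx4 was the next largest after that of Calr3 among the chaperone and isomerase genes named.

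Degradation of misfolded proteins was the pathway list with the most falls outside the sperm surface list, 4 of 15, beside 5 that rose. Herpud2 and Herpud1, membrane scaffolds of the degradation complex, changed by −1.86 ± 0.07 and −1.81 ± 0.08, and Ube2j1, a ubiquitin conjugating enzyme of that membrane, fell by 1.70 ± 0.06. Ube2g2, another such enzyme, fell by 1.21 ± 0.07 and was named after its value was seen. In none of the 4 did the groups overlap. Herpud1, for instance, was at 11.88 to 12.18 in the WT and at 10.07 to 10.40 in the KO.

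The unfolded protein response, which raises chaperone output when folding lags, had 5 of 13 genes higher and 2 lower, with a median of 0.15. Both shares, 38.5% and 15.4%, were near those of all genes, 31.1% and 13.2%. Its sensors Ern1 and Eif2ak3 rose by 0.47 ± 0.08 and 0.35 ± 0.09, and Ppp1r15b, which restores translation, fell by 0.28 ± 0.07. With arrays centred on housekeeping genes 3 of the 13 were called higher. Those genes were not a steady reference, since of 8 measured 3 were themselves called higher and 2 lower. Xbp1 and Ddit3, targets often read for this response and named after their values were seen, were not called, at 0.27 ± 0.11 and 0.09 ± 0.09.

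Entry into the compartment and its calcium were read from 3 more lists. For the translocon and signal peptidase 10 of 14 rose, led by the signal peptidase subunit Sec11c at 1.21 ± 0.10, with Tram2 at 0.86 ± 0.06 and Ssr1 at 0.50 ± 0.05. For oligosaccharyltransferase, which attaches the sugar, 5 of 12 rose, with Dad1 at 0.49 ± 0.11, Magt1 at 0.46 ± 0.09 and Rpn1 at 0.35 ± 0.06. For calcium handling 9 of 13 rose, with the calcium binding proteins Rcn1 at 0.86 ± 0.06, Nucb2 at 0.56 ± 0.09 and Rcn3 at 0.44 ± 0.11. None of these 3 lists held a gene called lower, although with housekeeping centring 1 gene each of the translocon, calcium, lectin and heat shock lists was.

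**Figure D5:**
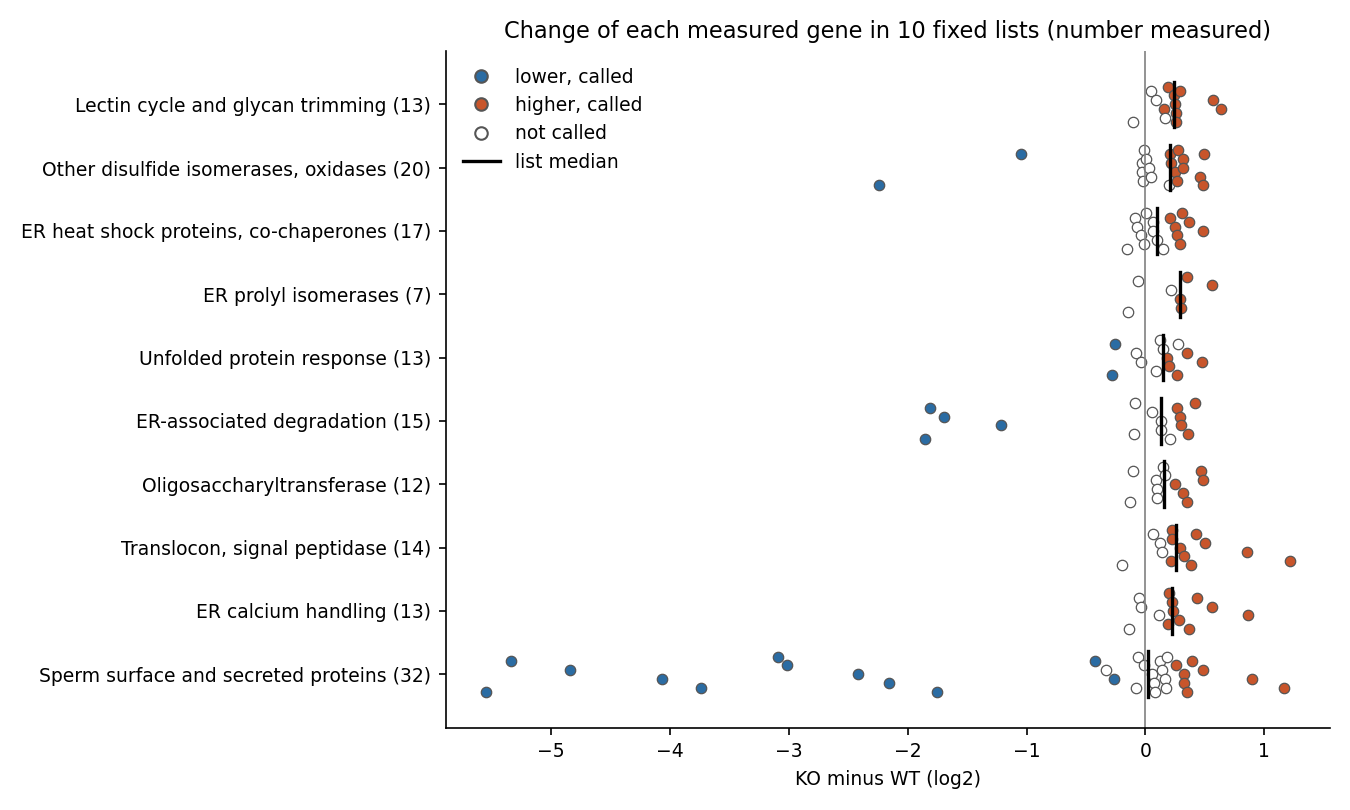
KO minus WT in log2 for each measured gene of 10 lists, of the folding pathway and of sperm surface and secreted proteins (points, filled where called), with the list median (bar). Points of the folding lists crowd just above 0, the 4 degradation genes, Prdx4 and Casq1 lie below −1, and the sperm surface list spreads from −5.55 to 1.17.

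The genes whose profiles over the 10 arrays were most like those of the testis forms were found by the root mean square difference of profiles centred on their own means. For Calr3 they were Lrrc74a at 0.106, Gm4868 at 0.128 and Gm527 at 0.129, with changes of −3.07, −2.90 and −2.88. For Pdilt they were Rimbp2 at 0.0479, Oxr1 at 0.0537 and Wnt1 at 0.0554. For Clgn they were Pld6 at 0.0598, Zfp605 at 0.0619 and Bola2 at 0.0636, none of them called. Centred profiles leave out the level. Rimbp2, Wnt1 and Zfp605 were low on the arrays, with WT means of 6.44, 6.18 and 5.44. Oxr1, Pld6 and Bola2 had WT means of 9.87, 9.65 and 8.61. Among the ubiquitous chaperones Calr came closest to Clgn, at rank 25 of all genes, with 0.0764. Canx, its structural relative, stood at rank 1211.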

How the data were processed

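The authors summarised the arrays by RMA and deposited log2 levels, 1 row per feature. Of 25689 features with values, 20777 had 1 gene symbol in the platform annotation, 232 had several and 4680 had none. For each of 19661 genes the feature with the highest mean was kept. Mice were grouped by the genotype in the labels. KO and WT were compared with limma 3.58.1 in R 4.3.3 (lmFit and eBayes on all features, no covariate, Benjamini-Hochberg over all features), which was tested on simulated data. Pairs were compared by exact permutation in Python 3.11.15. Summed marker levels are log2 of the summed linear signals. The genes, lists and tests were chosen with earlier results of these data known. Named were the 10 chaperones, Crem, the 3 called genes of largest change in each pathway list (12 for the sperm surface list), the 2 genes of highest mean in each marker list and the 3 most alike profiles of each testis form. Some are given only in the counts. Promoters are from RefSeq, GRCm38.p6. Some listed genes, such as Dnajc3, Vcp and Sec61b, were not analysed here.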

Additional observations from a re-analysis of the deposited data

Results flagged for a closer look

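In 2 of 26 groups checked, 1 array stood apart from the other 4 by Dixon's criterion, and chance gives this in about 1 of 20 groups. Pdia6 in WT replicate 2 was 11.09, with a gap to the next array of 0.787 of the range of the WT. Hspa5 in KO replicate 2 was 12.33, with a gap of 0.720 of the range of the KO. Without those arrays the changes were 0.19 for Pdia6 and 0.34 for Hspa5, both called higher (limma).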

How the results depend on the processing

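Over 22 alternatives none of the 220 changes of the 10 chaperones turned direction, and 192 kept their side of the threshold. Calr passed with array weights (0.20), median centring (0.20), another quantile normalisation (0.20), trend and robust fits (0.18) and without KO replicates 2 and 3 (0.24). Pdia3 passed under those settings at 0.25, 0.24, 0.24, 0.22 and 0.34, and at 0.22 with the lowest 25% of features removed. Pdia4 passed with array weights (0.17) and batch as a fixed block (0.25). Leaving out 1 array gave 0.14 to 0.21 for Calr, 0.15 to 0.28 for Pdia3, 0.11 to 0.19 for Pdia4, and −0.19 to −0.10 for Clgn minus Canx. The ubiquitous forms called higher, which are all the chaperones called higher, numbered 7 with array weights and 4 to 7 without 1 array.

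Each batch set 1 array against 3, with the lone array assumed to vary like the others, so calls kept or lost there say little. Batch 2 alone called 2 chaperones higher and 1 lower, and batch 4 alone called 0 and 1, where limma gave all 7 ubiquitous forms a positive change. In batch 2 the calls lost were Pdilt (−0.38), Canx (0.27) and Pdia6 (0.28). In batch 4 they were Pdilt (−0.29), Canx (0.20), Pdia6 (0.23), P4hb (0.22) and Hspa5 (0.23). All genes called higher and lower numbered 2208 and 1552 in batch 2 and 1902 and 1584 in batch 4, and pathway genes called higher 26 and 22. Calr3 minus Calr was −3.04 with the block, −3.10 in batch 2 and −2.99 in batch 4, and Pdilt minus P4hb −0.66, −0.81 and −0.51. The exact permutation p of both pairs was 0.0625, 0.25 and 0.25, each the smallest that so few regroupings can give, so these tests cannot pass.

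Of 1451 values of 66 other named genes, 5 turned sign, none of them called: Ldhc (−0.0137 with housekeeping centring, −0.0644 in batch 4), Pld6 (−0.121 in batch 4, −0.00599 to 0.118 without 1 array) and Zfp605 (−0.0227 in batch 4). Centring on housekeeping genes moved the median of all genes by −0.05. No paired analysis was possible because replicate numbers follow accession order and pair no animals.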

Other observations

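Pdia4 had a second array feature, with a difference of 0.10 ± 0.12 between a WT mean of 6.18 and a KO mean of 6.27, which was not called (limma adjusted p = 0.57). Among the somatic markers, Tek, the angiopoietin receptor of endothelium, rose by 2.05 and Vwf by 0.58. The rest of the endothelium list, named after its values were seen, was split. Cdh5 rose by 1.15, while Pecam1, Kdr and Esam were not called, at 0.02, 0.08 and 0.02. Lyz2 of macrophages rose by 0.93 and Mrc1 by 0.42. Cyp17a1 and Hsd3b6, steroid enzymes of Leydig cells, rose by 0.61 and 0.54, and Kit, which marks differentiating spermatogonia and Leydig cells, by 0.47. Actg2, a smooth muscle actin, was the peritubular marker that fell, by 0.63.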
